A study of Mus musculus with 5 samples.

Results

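The nuclear genes for the respiratory chain and the mitochondrial ATP synthase were examined in aortas of diabetic mice. Members were all probe sets annotated with a single gene symbol that starts with Ndufa, Ndufb, Ndufc, Ndufs, Ndufv, Sdh, Uqcr, Cox and a digit, or Atp5. The rule uses no measured value. They were 171 of the 22626 probe sets of the array that are not controls, and stood for 93 genes. By role, 79 of these genes encode subunits and 14 encode assembly factors, whose symbols share the same letters. The 3 arrays of Lepr db/db aortas (replicates 1, 2 and 3) were set against 2 arrays of Lepr db/+ aortas (replicates 2 and 3). Homozygous db/db mice lack the signalling form of the leptin receptor and become obese and diabetic, while heterozygous db/+ mice, which carry 1 mutant copy, served as controls. Both groups were males of the strain labelled BKS.Cg-m +/+ Lepr db/J, aged 16 to 20 weeks and fed chow. Each array held RNA pooled from 6 aortas from which the outer layer and the surrounding fat had been removed, so an array is 1 pool and single mice were not measured.

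Complex I (NADH dehydrogenase), complex II (succinate dehydrogenase), complex III (the cytochrome bc1 complex) and complex IV (cytochrome c oxidase) pass electrons from NADH and succinate to oxygen, and complexes I, III and IV pump protons across the inner mitochondrial membrane. ATP synthase uses the proton gradient to make ATP. Core subunits, as grouped here for complexes I, II and III, include those that hold redox centres or active sites. Accessory subunits surround them, and assembly factors help to build a complex without being part of it. In complex III the core group held the core proteins Uqcrc1 and Uqcrc2 and the Rieske protein Uqcrfs1, while Cyc1 fell outside the symbol rule. Vascular smooth muscle has fewer mitochondria than heart muscle or brown fat, which express some subunits as isoforms of their own.

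Values are MAS5 signals, the authors' linear intensity for each probe set. A log2 change is the db/db mean less the db/+ mean of log2(signal + 16), given with its standard error (SE) from limma. The smooth muscle markers Myh11 and its list of 12 genes were measured on every array (Myh11 signals of 3589.9 to 3916.4 in db/db and 3366.5 to 3426.4 in db/+). Signals of brown fat and heart genes were present as well: Ucp1, the uncoupling protein of brown fat, had 2136.2, 4334.5 and 3444.7 in db/db replicates 1, 2 and 3, against 2503.4 and 2665.3 in db/+. The heart myosin gene Myh6 had 12.6, 468.5 and 39.1 in db/db, against 105.8 and 72.0 in db/+. In these bulk samples, fewer cells of a type and less RNA per cell cannot be told apart.

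No respiratory chain or ATP synthase gene differed between the genotypes past the threshold. Of the 171 probe sets, 154 passed the filter on low signals and were tested, standing for 91 of the 93 genes. The genes left out were Ndufb1, with signals of 70.7, 23.4 and 47.9 in db/db and 36.0 and 29.3 in db/+, and Cox7c, whose 2 probe sets stayed between 2.4 and 28.0. At an adjusted p under 0.05 (limma, Benjamini-Hochberg over all 13575 probe sets tested) 0 of the 154 passed, where 0.081% of all probe sets passed, and the smallest adjusted p among members was 0.30. At an unadjusted p under 0.05, 3 member probe sets were higher and 1 was lower, against 3.98% of all probe sets higher and 4.15% lower. The log2 change lay within 0.5 of zero for 151 of the 154, and the median SE of a member was 0.19.

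By 1 probe set a gene, the one with the highest mean over the arrays, 53 of 91 members had a negative log2 change (58.2%, against 46.1% of all 8263 genes tested). The median was −0.06 for members and 0.02 for all genes. The 3 db/db arrays lay entirely above both db/+ arrays for 5 member genes (5.49%, where 13.7% of all genes did so) and entirely below them for 7 (7.69%, against 12% of all genes). Both shares were under those of all genes.

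The db/db array of replicate 1 stood apart from the rest. In db/db replicate 1, 63 of 91 member genes had their lowest signal of the 5 arrays (69.2%, against 20.8% of all genes). The median member differed from the db/+ mean by −0.28 in db/db replicate 1, by 0.10 in db/db replicate 2 and by −0.00 in db/db replicate 3, and the db/+ arrays lay at −0.06 and 0.06. Over all genes the same medians were 0.04, 0.01 and 0.01 in db/db. In db/db replicate 2, by contrast, 38 of the 91 had their highest signal (41.8%, against 19% of all genes). A further 28 had it in db/+ replicate 3 (30.8%, against 19.9% of all genes). Without db/db replicate 1 the median log2 change of the members was 0.04. By counts added after seeing the data, 34 members then had a negative and 57 a positive log2 change. The 2 remaining db/db arrays then lay above both db/+ arrays for 18 of the 91 (19.8%, against 19.3% of all genes) and below them for 7 (7.69%, against 18%).

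Marker lists of other tissues also stood apart in that array. The summed signal of 10 general adipocyte markers was 9188 in db/db replicate 1 and 11615 to 14000 in the other db/db arrays, against 13421 to 14249 in db/+. That of 7 brown adipocyte markers was 4906 in db/db replicate 1 and 7716 to 9156 in the other db/db arrays, against 6656 to 7009 in db/+. Of these 7 genes, 4 were lowest in db/db replicate 1, among them the bright Ucp1 and Cidea. Dio2 was highest there (489.1), and Elovl3 (96.4) and Acot11 (62.7) lay above both db/+ arrays. For 15 cardiac markers the sum was 899 in db/db replicate 1, 4488 in db/db replicate 2 and 1117 in db/db replicate 3, against 1859 and 1441 in db/+. The 12 smooth muscle markers summed to 33403 in db/db replicate 1 and 27684 to 30808 in the other db/db arrays, against 25115 to 28216 in db/+. In db/db replicates 1, 2 and 3 the 10 macrophage markers summed to 2352, 2052 and 2434, against 3622 and 4327 in db/+, and the 10 endothelial markers to 1779, 1960 and 2163, against 2735 and 2442 in db/+. The 9 fibroblast markers summed to 20257, 17799 and 16815 in db/db, against 15548 and 17923 in db/+. The 4 tested skeletal muscle markers summed to 703, 896 and 580 in db/db, against 1057 and 542 in db/+. Casq1 alone had 520.0, 515.9 and 414.8 in db/db, against 300.2 and 300.2 in db/+. Its log2 change was 0.65, while Acta1, Ckm and Tnnc2 had −0.92, −0.50 and −0.98. The median log2 difference of the list from the db/+ mean was −0.92, −0.06 and −0.96 in db/db, against 0.45 and −0.45 in db/+. In the array where most respiratory chain genes were lowest, the fat, heart and endothelial sums were at their lowest. The smooth muscle and fibroblast sums were at their highest there, while the macrophage and skeletal muscle sums were at neither end. The sums rest on the brighter genes of each list. By gene, that array was lowest for 7 of 10 general adipocyte, 9 of 15 cardiac and 7 of 10 endothelial markers, while the adipocyte marker Plin4 was highest there (1336.6). Of the tested markers of all 8 lists only the adipocyte hormone gene Lep passed the test, lower in db/db. No tested marker of these lists was at 0 on any array, and their part in the respiratory chain values was not tested.

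**Figure D1:**
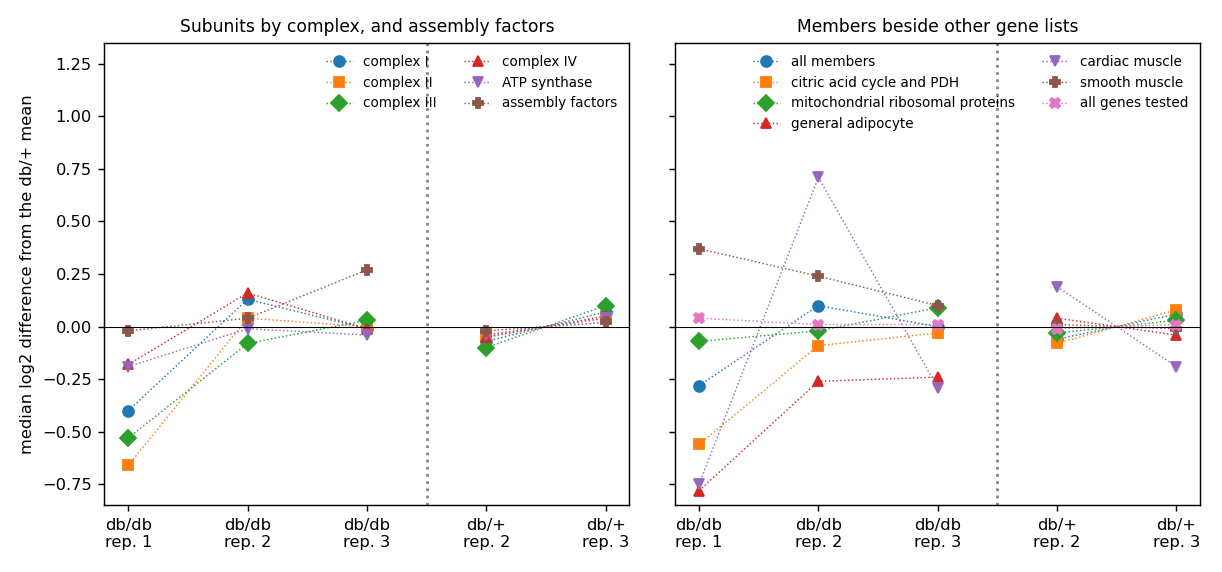
Median log2 difference of each gene list from the mean of the 2 db/+ arrays (vertical axis) for each array, db/db on the left of each panel and db/+ on the right; a point is the median over the list's genes, and dotted lines only join the points of 1 list within a genotype. The members' medians were −0.28 in db/db replicate 1 and 0.10 in db/db replicate 2, and the adipocyte and cardiac lists were also low in db/db replicate 1.

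The median log2 change was lower for core than for accessory subunits. Of 13 core subunits of complexes I, II and III that were tested, 11 had a negative log2 change, with a median of −0.26, while 21 of 31 accessory subunits of complexes I and III did, with a median of −0.07. Of the 14 assembly factors, 11 had a positive log2 change, with a median of 0.10, but the complexes differed. All 6 of complex IV and all 3 of complex II were positive, Sdhaf1 at 0.00. In complex I, 3 of 5 were negative (median −0.07). The 15 assembly factors outside the symbol rule, described below, had a median of 0.00. None of these genes passed the test, and the differences between the classes were not tested. The medians of the core subunits by array were −0.55, −0.13 and −0.03 in db/db, against −0.07 and 0.07 in db/+. Those of the accessory subunits were −0.37, 0.15 and −0.00 in db/db, against −0.08 and 0.08 in db/+. Without db/db replicate 1 the median was −0.03 for core subunits, 10 of 13 of them negative, 0.06 for accessory subunits and 0.17 for assembly factors.

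**Figure D2:**
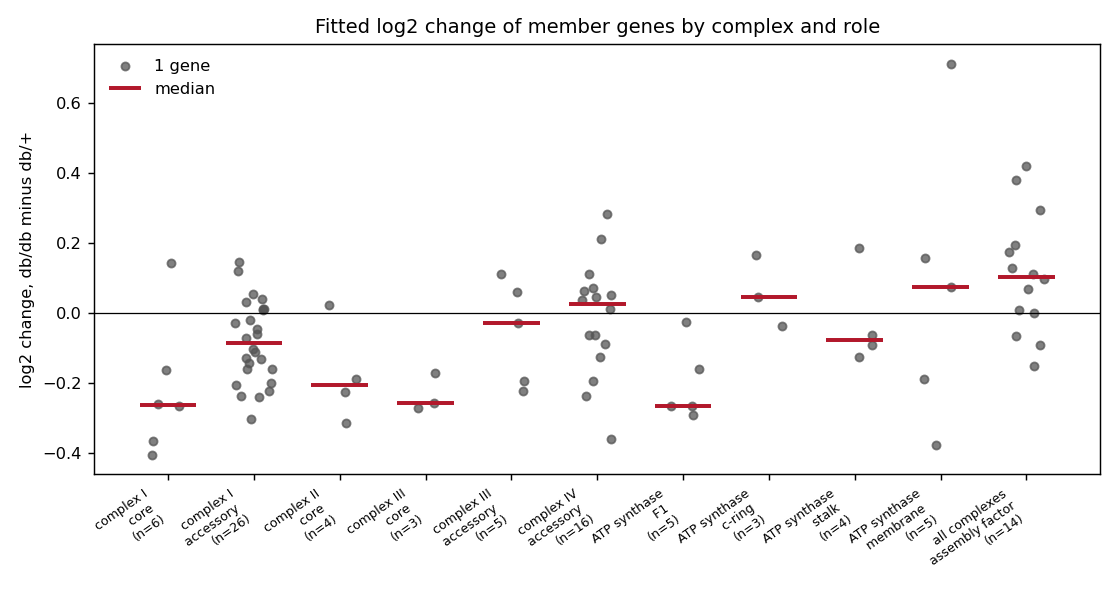
Fitted log2 change (db/db minus db/+, vertical axis) of each tested member gene, by complex and role; a point is 1 gene by its probe set with the highest mean, and red bars are medians. Medians of the core subunits of complexes I and III lie at −0.26, that of complex I accessory subunits at −0.09 and that of assembly factors at 0.10.

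In complex I, 23 of 32 tested subunits had a negative log2 change and the median was −0.12. Ndufs1, the largest core subunit, which carries iron-sulfur clusters of the NADH-oxidising arm, had signals of 406.9, 406.8 and 481.2 in db/db, against 584.3 and 566.2 in db/+. All db/db arrays lay below both db/+ arrays, and the log2 change was −0.41 with an SE of 0.16 (limma adjusted p = 0.56). It was the only member probe set that was lower at an unadjusted p under 0.05.

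Ndufs3 and Ndufs7, core subunits of the arm that leads to ubiquinone, also had all db/db arrays below both db/+ arrays. Ndufs3 had 772.2, 997.6 and 1029.1 in db/db, against 1060.8 and 1164.2 in db/+ (log2 change −0.26, SE 0.18, limma adjusted p = 0.79). Ndufs7 had 793.4, 1036.5 and 1094.8 in db/db, against 1109.0 and 1224.3 in db/+ (−0.27, SE 0.19, adjusted p = 0.79), and −0.12 at its second probe set. In both genes db/db replicate 1 was the lowest array, and db/db replicates 2 and 3 lay just under the db/+ values.

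Ndufv1, the subunit that binds NADH and flavin mononucleotide, was less even at its representative probe set. Its signals were 729.1, 928.6 and 1317.8 in db/db, against 1186.5 and 1306.7 in db/+, so that db/db replicate 3 was the highest array (log2 change −0.37, SE 0.24, limma adjusted p = 0.77). Its other probe sets had log2 changes of −0.31 and −0.18. At the first of these all db/db arrays (784.7, 990.3 and 1148.1) lay below both db/+ arrays (1198.7 and 1188.3), and at the second the genotypes overlapped. The remaining core subunits were Ndufv2 at −0.16 and Ndufs8 at 0.14. The 26 tested accessory subunits ranged from −0.30 to 0.15, 18 of them negative, and in 22 of them db/db replicate 1 was the lowest array. The lowest accessory subunit was Ndufa5, with 450.3, 714.4 and 445.7 in db/db against 645.0 and 654.5 in db/+ at the representative probe set (−0.30, SE 0.22, adjusted p = 0.81) and 0.01 at the other. The 5 complex I assembly factors had log2 changes from −0.15 to 0.10.

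Complex II has 4 subunits, of which 3 had a negative log2 change (median −0.21). Sdha, the flavoprotein that oxidises succinate, had 980.5, 1536.3 and 1630.3 in db/db, against 1625.7 and 1740.8 in db/+ (−0.31, SE 0.23, limma adjusted p = 0.80). Sdhb, the iron-sulfur subunit, had 1144.3, 1608.6 and 1740.2 in db/db, against 1649.2 and 1714.8 in db/+ (−0.19, SE 0.20, adjusted p = 0.87). Sdhd, a membrane anchor, had 527.2, 1170.3 and 1161.7 in db/db, against 1072.7 and 1028.3 in db/+ (−0.23, SE 0.32, adjusted p = 0.91). In all 3 genes db/db replicate 1 was the lowest array. For Sdhd the other db/db arrays lay above both db/+ arrays, and without replicate 1 its log2 change was 0.15. Sdhaf2, an assembly factor, had 265.5, 272.2 and 375.7 in db/db, against 249.4 and 280.4 in db/+ (0.18, SE 0.19, adjusted p = 0.88), and the other 2 assembly factors had log2 changes of 0.00 and 0.11.

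In complex III, 6 of 8 subunits had a negative log2 change (median −0.18), among them all 3 core subunits tested. Uqcrc1, a core protein, had 1291.8, 1732.7 and 1831.1 in db/db, against 1907.7 and 1963.9 in db/+, with no overlap (−0.27, SE 0.19, limma adjusted p = 0.79). Uqcrfs1, the Rieske iron-sulfur protein, had 894.0, 1433.9 and 1535.8 in db/db, against 1367.7 and 1645.7 in db/+, which overlapped (−0.26, SE 0.24, adjusted p = 0.86). The small accessory subunit Uqcr11 had 935.4, 1268.7 and 1382.3 in db/db, against 1257.9 and 1452.3 in db/+, overlapping (−0.19, SE 0.20, adjusted p = 0.87). In both, db/db replicate 1 was the lowest array and db/db replicates 2 and 3 lay among the db/+ values. Uqcrq, also a small accessory subunit, had 846.7, 1263.7 and 1471.5 in db/db, against 1197.0 and 1546.3 in db/+ (−0.22, SE 0.25, adjusted p = 0.88), while 2 other probe sets of it gave 0.08 and 0.09. In 7 of the 8 subunits db/db replicate 1 was the lowest array, and without it the median of complex III was 0.01.

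In complex IV, 9 of 16 tested subunits had a positive log2 change (median 0.02). This count holds Ndufa4, once assigned to complex I and now to complex IV. The median turned to −0.03 with a filter at the 60th percentile, to −0.05 with quantile normalization and to −0.06 when all probe sets of each gene were averaged. Cox5a, a subunit of the matrix side, had 1619.9, 2668.4 and 2367.0 in db/db, against 2740.8 and 2839.6 in db/+, all db/db arrays being lower (−0.36, SE 0.22, limma adjusted p = 0.75), and −0.08 and −0.18 at its other probe sets. The 5 tested probe sets of Cox5b did not agree, with log2 changes from −0.36 to 0.05, and the representative one had 0.04 (adjusted p = 0.97). All 6 complex IV assembly factors had a positive log2 change, from 0.01 to 0.42.

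Cox20, which helps to mature the mitochondrially encoded subunit COX2, had the highest log2 change among them. Its signals were 374.5, 347.3 and 299.5 in db/db, against 249.1 and 249.7 in db/+, so that the genotypes did not overlap (0.42, SE 0.16, limma adjusted p = 0.56). Cox16, another assembly factor, had 176.8, 112.4 and 200.7 in db/db, against 120.4 and 116.8 in db/+, where db/db replicate 2 was the lowest of all arrays (0.38, SE 0.23, adjusted p = 0.75). The 250 bases upstream of Cox20 are given because it was the subunit or assembly factor of complex IV with the smallest p. They lie on the plus strand of chromosome 1 at chr1:178318903-178319152 (RefSeq, GRCm38.p6). Capitals mark a match to CCGGAAG, the core bound by ETS factors such as GABP, read here on the other strand, and a match to AAGATGGC, the core bound by YY1.
Cox20: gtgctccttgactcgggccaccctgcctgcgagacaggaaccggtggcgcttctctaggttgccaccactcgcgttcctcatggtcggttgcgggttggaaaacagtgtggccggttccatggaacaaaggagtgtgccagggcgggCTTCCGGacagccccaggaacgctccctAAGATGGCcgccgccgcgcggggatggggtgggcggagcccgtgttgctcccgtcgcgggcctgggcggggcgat

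Some complex IV subunits exist as pairs, 1 form found in most tissues and 1 typical of particular tissues. Cox6a2, Cox7a1 and Cox8b are the forms of heart and skeletal muscle, the last 2 also of brown fat, and Cox4i2 is the form known from lung. Cox6a2 had signals of 45.7, 308.2 and 82.3 in db/db, against 201.5 and 78.6 in db/+, a 6.74-fold range over the arrays and the widest of the 91 genes. Cox7a1 had 326.8, 796.0 and 698.8 in db/db, against 564.7 and 623.5 in db/+, a 2.44-fold range. Cox8b had 1242.4, 2547.2 and 2616.5 in db/db, against 1585.1 and 2341.3 in db/+, a 2.11-fold range. All 3 were lowest in db/db replicate 1, where the cardiac, adipocyte and brown adipocyte sums were lowest too. Cox6a2 and Cox7a1 were highest in db/db replicate 2, where the cardiac and brown adipocyte sums were highest. Cox8b was highest in db/db replicate 3, where the cardiac sum was 1117, against 4488 in db/db replicate 2. The skeletal muscle sum was lowest in db/+ replicate 3 (542) and highest in db/+ replicate 2 (1057), but Casq1 made up much of that sum. By the list's median log2 difference from the db/+ mean, db/db replicates 3 and 1 were lowest (−0.96 and −0.92). A link between these isoforms and the sums was not tested.

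Their widespread partners had ranges of 1.10-fold to 1.53-fold. Cox6a1 ranged from 3894.9 to 4788.2 in db/db and from 4062.0 to 4454.8 in db/+, a 1.23-fold range, and Cox7a2 ranged 1.10-fold, the narrowest of the 91 genes. Cox8a ranged 1.53-fold and Cox4i1 1.37-fold over the same arrays. Cox4i2 was the exception among the tissue forms in being highest in db/db replicate 1: it had 97.6, 68.5 and 67.2 in db/db, against 66.4 and 54.6 in db/+, without overlap (0.28, SE 0.19, limma adjusted p = 0.79). No isoform passed the test. The log2 changes were −0.20, −0.06 and 0.07 for Cox6a2, Cox7a1 and Cox8b, with SE of 0.62, 0.33 and 0.33, and 0.01, 0.05, −0.13 and −0.06 for Cox6a1, Cox7a2, Cox8a and Cox4i1. The SE of Cox6a2 was the widest of these and exceeded the log2 change of every other isoform.

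**Figure D3:**
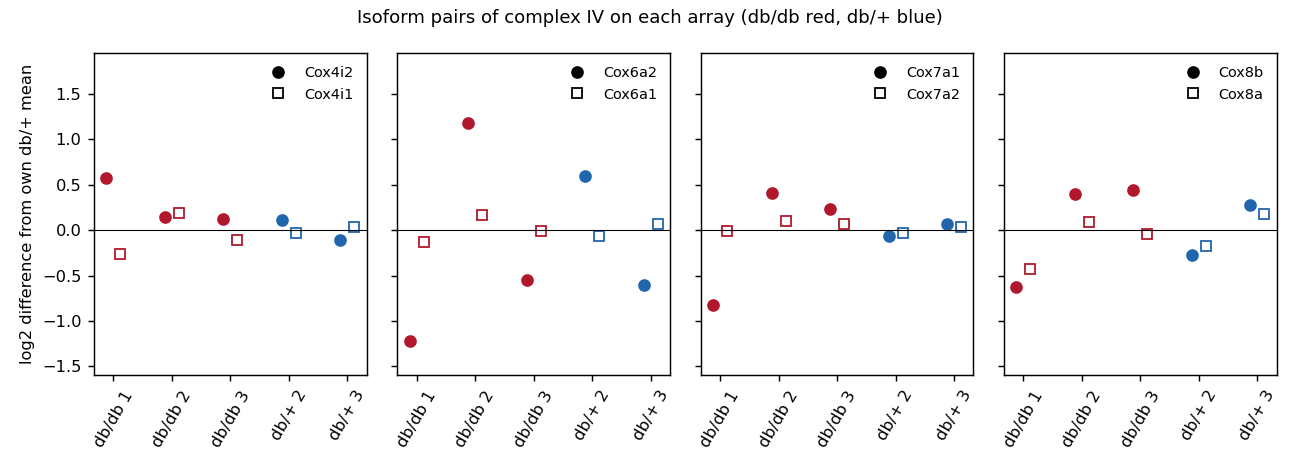
Log2 difference of each array from the gene's own db/+ mean (vertical axis) for 4 pairs of complex IV isoforms, db/db arrays in red and db/+ arrays in blue; filled circles are the tissue forms Cox4i2, Cox6a2, Cox7a1 and Cox8b, open squares their widespread partners. Cox6a2, Cox7a1 and Cox8b lie lowest in db/db replicate 1, while Cox7a2 stays within a 1.10-fold range of signal.

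The upstream 250 bases of the Cox8 pair are shown as an example of 2 isoforms that differed in spread over the same arrays (2.11-fold and 1.53-fold). The Cox7a pair differed more (2.44-fold for Cox7a1 and 1.10-fold for Cox7a2). The window of Cox7a1, from 250 bases before to 50 after the start, holds no match to CAGCTG. A link between motif and spread was not tested. Both lie on the minus strand, Cox8b at chr7:140900447-140900696 and Cox8a at chr19:7217617-7217866 (RefSeq, GRCm38.p6). Capitals mark a match to CAGCTG, an E-box of the kind read by muscle regulators, which is its own reverse complement. The 250 bases shown for Cox8a hold no match to CAGCTG, to the ETS core or to the YY1 core, but the full window that runs on to 50 bases after the start holds 2 matches to the ETS core for Cox8a and 2 to CAGCTG for Cox8b.
Cox8b: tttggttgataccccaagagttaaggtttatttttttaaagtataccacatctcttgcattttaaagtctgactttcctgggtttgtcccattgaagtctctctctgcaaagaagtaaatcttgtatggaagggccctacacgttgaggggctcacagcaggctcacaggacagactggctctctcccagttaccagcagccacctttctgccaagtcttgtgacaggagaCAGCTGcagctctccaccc
Cox8a: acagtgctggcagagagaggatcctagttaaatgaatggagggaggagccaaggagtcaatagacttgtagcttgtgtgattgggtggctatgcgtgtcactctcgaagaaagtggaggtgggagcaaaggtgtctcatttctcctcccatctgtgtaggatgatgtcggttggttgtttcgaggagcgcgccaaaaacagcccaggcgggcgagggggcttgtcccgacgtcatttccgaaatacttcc

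In ATP synthase, 11 of 17 subunits had a negative log2 change (median −0.06). All 5 subunits of F1, the catalytic part on the matrix side, had negative log2 changes, from −0.29 to −0.03. Atp5c1, the gamma subunit that forms the rotating shaft, had 1457.5, 1496.6 and 1644.4 in db/db, against 1746.9 and 2014.5 in db/+, without overlap (−0.29, SE 0.16, limma adjusted p = 0.71). Atp5a1, the alpha subunit, had 2203.5, 2802.3 and 3063.5 in db/db, against 2908.1 and 3542.3 in db/+ (−0.27, SE 0.19, adjusted p = 0.80), with −0.18 and 0.08 at its other probe sets. The 3 genes of the c-ring, which carry the proton path, had log2 changes from −0.04 to 0.17, and in none of them was db/db replicate 1 the lowest array.

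The membrane subunits spanned the widest range, from −0.38 to 0.71. Atp5md, the small subunit also called DAPIT, had 274.1, 361.7 and 361.7 in db/db, against 451.3 and 415.6 in db/+, without overlap (−0.38, SE 0.18, limma adjusted p = 0.65). Atp5k, subunit e, which holds ATP synthase dimers together, had the largest log2 change of any member. At probe set 1450640_x_at it had 2200.7, 2096.9 and 2057.1 in db/db, against 1522.7 and 1084.2 in db/+ (0.71, SE 0.18, limma adjusted p = 0.30).

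The 3 probe sets of Atp5k did not agree. At 1422525_at the signals were 2047.7, 1226.3 and 2657.0 in db/db, against 979.0 and 716.8 in db/+ (log2 change 1.15, SE 0.30, limma adjusted p = 0.30). At 1434053_x_at they were 638.1, 999.1 and 810.1 in db/db, against 880.3 and 784.1 in db/+ (−0.05, SE 0.21, adjusted p = 0.97). The genotypes did not overlap at 1450640_x_at and 1422525_at and overlapped at 1434053_x_at. Names ending in x_at mark probe sets whose probes can also bind other transcripts. Both 1450640_x_at and 1434053_x_at carry this mark, and 1422525_at does not. Which signal stands for Atp5k cannot be settled here. The gap of 1.20 between its probe sets was the largest of the 43 members with more than 1 tested probe set, whose median gap was 0.13 and next largest gap 0.42.

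**Figure D4:**
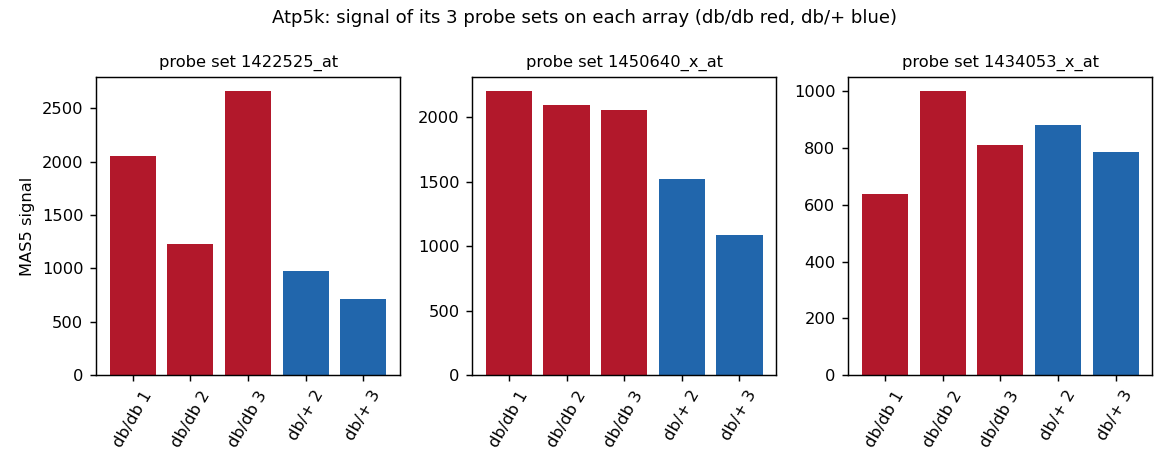
MAS5 signal (vertical axis, each panel with its own scale from 0) of the 3 Atp5k probe sets on the 3 db/db arrays (red) and the 2 db/+ arrays (blue). At 1422525_at and 1450640_x_at every db/db bar is above both db/+ bars, while at 1434053_x_at the genotypes overlap.

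The 250 bases upstream of Atp5k are shown because it was the member with the largest log2 change. They lie on the minus strand at chr5:108434400-108434649 (RefSeq, GRCm38.p6). Capitals mark 2 overlapping matches to GCGCNTGCG, part of the site bound by the nuclear respiratory factor NRF1, 1 on each strand, between 50 and 41 bases before the start. The full window to 50 bases after the start also holds 1 match to the ETS core.
Atp5k: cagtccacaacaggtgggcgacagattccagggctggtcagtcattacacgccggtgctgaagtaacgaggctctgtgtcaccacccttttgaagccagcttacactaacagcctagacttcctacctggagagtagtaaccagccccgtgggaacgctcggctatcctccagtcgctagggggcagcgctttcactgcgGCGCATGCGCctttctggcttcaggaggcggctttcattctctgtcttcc

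Promoters of RefSeq (GRCm38.p6, 250 bases before to 50 after the start) were found for 77 of the 93 member genes and searched on both strands. The NRF1 core GCGCNTGCG was present in 24 of 77 (31.2%), against 15.7% of 6623 other genes tested on the array and 7.12% of all 27025 genes with a promoter. The ETS core CCGGAAG was present in 29.9% of members, 20% of the other genes tested and 9.93% of all genes, and the YY1 core AAGATGGC in 13%, 5.45% and 3.19%. The estrogen-related receptor core TCAAGGTCA was found in 2 members (2.6%, against 0.317% of other genes tested and 0.466% of all). The muscle motif TATTTATAG, part of the MEF2 site, was in 0 members, against 0.393% of other genes tested and 0.522% of all. CAGCTG was in 7.79% of members, 17.7% of other genes tested and 18.3% of all, and CCAAT in 39%, 42.4% and 41.1%. A match is a description of the letters and shows no binding. Tested members with an NRF1 match had a median log2 change of −0.13 (18 of 24 negative), against −0.03 for the 51 without (26 negative). Those with a CAGCTG match had −0.15 (5 of 6 negative), against −0.05 for the 69 without. Members with an ETS match had −0.06, as did those without. The medians with and without a match were −0.02 and −0.06 for YY1 and −0.03 and −0.09 for CCAAT. These differences were not tested.

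Genes that work beside the respiratory chain were described from lists. None of their genes passed the test. Of 15 tested genes of the citric acid cycle and pyruvate dehydrogenase, which feed NADH and succinate to the chain, 13 had a negative log2 change (median −0.20), and db/db replicate 1 was the lowest array for 14. Suclg1, a succinyl-CoA ligase subunit, had 699.4, 921.2 and 923.5 in db/db, against 958.1 and 1128.0 in db/+ (−0.30, SE 0.19, limma adjusted p = 0.75), and Idh3b, an isocitrate dehydrogenase subunit, had −0.38 (adjusted p = 0.77). Without db/db replicate 1 the median of the list was −0.05. Of 9 electron carriers and related genes, 6 had a negative log2 change (median −0.09), the lowest being Etfa, which passes electrons from fatty acid oxidation, with 909.0, 1251.1 and 1411.6 in db/db, against 1574.9 and 1651.7 in db/+ (−0.46, SE 0.21, adjusted p = 0.63). Coq3, of ubiquinone synthesis, had 0.22.

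The same array was also counted in other mitochondrial lists. It was lowest for 25 of 74 mitochondrial ribosomal protein genes (33.8%, median log2 change of the list −0.00) and for 9 of 20 import genes (45%, median −0.01). It was lowest for 5 of 13 regulators of mitochondrial gene expression (38.5%, median 0.06), among them Nrf1 with a log2 change of 0.28 and Ppargc1b, a coactivator, with −0.33. Of 9 carriers, porins and uncoupling proteins 6 were positive (median 0.05). Ucp3, the uncoupling protein known from muscle and brown fat, had 108.4, 117.5 and 109.9 in db/db, against 75.7 and 67.6 in db/+ (0.55, SE 0.15, limma adjusted p = 0.34), and Atpif1, the inhibitor of ATP synthase, had 0.19. Of 15 assembly factors outside the symbol rule 7 were negative and 8 positive (median 0.00). Those with the smallest p were Uqcc1 and Lrpprc, which act in complex III assembly and in mitochondrial RNA stability. They had −0.38 and −0.28 with limma adjusted p of 0.67 and 0.70, every db/db array being below both db/+ arrays.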

How the data were processed

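Aortic RNA was measured on 5 Affymetrix arrays, and the authors deposited 1 linear intensity for each probe set. The submitters' processing notes name MAS5 without a version. Each array's 2% trimmed mean lay between 150.049 and 150.053, so no further normalization was applied. Control probe sets (64 of 22690) were left out. The platform annotation gave 1 symbol for 20380 probe sets, and 9 probe sets with several symbols, of which 1 fits the rule, were not named. Probe sets with a mean log2(signal + 16) above the 40th percentile (a signal of about 39.5) were kept, 13575 in all, and fitted with limma 3.58.1 in R 4.3.3 (lmFit, eBayes, two-sided, no covariate, 3 residual and 5.63 prior degrees of freedom), with Benjamini-Hochberg adjustment over all kept. The fit was tested on simulated data. The number of arrays limits the precision. Per complex, the 4 genes with the smallest p were named, with the isoform pairs, the 3 largest log2 changes without overlap in each direction, the member nearest the median profile, genes whose probe sets differ in sign, and 2 genes a pathway list; other genes were chosen after their values were seen. The symbol rule that picks the members uses no measured value, but the rule, the lists and the roles were chosen with earlier results of these data known. The letters of the NRF1 and MEF2 motifs were shortened by 1 base after a first search. Promoters and gene names came from RefSeq (GRCm38.p6); the build behind the array is not given in the sources used here. Alternatives were pseudocounts, filters, quantile normalization, eBayes options, array weights, a replicate block and leaving out each array.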

Additional observations from a re-analysis of the deposited data

How the results depend on the processing

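No member probe set passed under any of the 14 alternatives to the main setting, while over all probe sets the 11 calls became 2 and 37 with pseudocounts of 1 and 64, 1 with no filter, 22 with a filter at the 60th percentile, 39 with trend and robust, 48 with array weights, 48 at a threshold of 0.1 and from 0 (without db/+ replicate 2) to 28 (without db/db replicate 1) when an array was left out (1 without db/+ replicate 3). With the replicate number as a block there were 20. Same-numbered arrays had deviations correlated at 0.11 and −0.00. With 2 db/+ arrays, whose deviations mirror each other, these values cannot show whether a number marks a shared batch. The labels do not say so either, and the numbers were not taken to pair the pools. The median of all genes moved by less than 0.1 under each alternative. The median of ATP synthase ranged from −0.16 to −0.00 when an array was left out, that of all members from −0.12 to 0.04, of complex I from −0.19 to 0.03, of complex II from −0.36 to −0.01, of complex III from −0.32 to 0.01 and of complex IV from −0.10 to 0.09. The counts and class medians without an array were added after seeing the data. The number of members with a negative log2 change ranged from 34 to 69. Members with all db/db arrays above db/+ were 5 in the main setting (5.49%, against 13.7% of all genes). Without db/db replicate 1 they were 18 (19.8%, against 19.3% of all genes). The median of complex IV turned to −0.03 with the 60th percentile, −0.05 with quantile normalization and −0.06 when all probe sets of each gene were averaged. Of 568 values of the 44 named genes under alternatives, 540 kept their sign and side of the threshold. The sign turned in 28 values of 11 genes, none of them called; the cause was not tested. With the block, which gives db/db replicate 1 no weight, and without db/db replicate 1, the log2 changes were 0.15 for Sdhd, 0.00 for Uqcrq, 0.04 for Cox4i1, 0.32 for Cox6a2, 0.32 for Cox7a1, 0.03 for Cox8a and 0.06 for Ndufb2. With quantile normalization they were −0.06 for Cox6a1, −0.03 for Cox7a2 and −0.02 for Cox5b. When an array was left out, the log2 change ranged from −0.41 to 0.15 for Sdhd, −0.41 to 0.00 for Uqcrq, −0.19 to 0.04 for Cox4i1, −0.07 to 0.08 for Cox6a1, −0.88 to 0.41 for Cox6a2, −0.30 to 0.32 for Cox7a1, 0.02 to 0.09 for Cox7a2, −0.30 to 0.05 for Cox8a, −0.21 to 0.42 for Cox8b, −0.17 to 0.25 for Cox5b and −0.11 to 0.06 for Ndufb2.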

Other observations

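Probe sets of the same gene did not always agree in sign. Among the 43 members with more than 1 tested probe set, 18 had log2 changes of both signs. The median gap was 0.13, beside a median log2 change of −0.06 over the member probe sets. As 151 of the 154 tested probe sets lay within 0.5 of zero, a limit of 0.5 on the gap says little about agreement. The gap was over 0.5 in 1 gene, Atp5k. The largest gaps after it were 0.42 for Cox5b and 0.41 for Atp5o, a stalk subunit whose dim probe set had signals of 49.7, 185.6 and 122.2 in db/db, against 193.1 and 134.9 in db/+. The member whose array profile was nearest to the members' median profile was Ndufb2, an accessory subunit of complex I, with 889.9, 1133.8 and 1028.4 in db/db, against 973.9 and 1096.8 in db/+ (distance 0.08 over 5 arrays on the log2 scale). The farthest among the named members was Cox6a2, at 1.79.

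Single genes of the mitochondrial ribosome and of protein import stood apart from their lists without passing the test. Mrps21, of the small ribosomal subunit, had 412.5, 263.2 and 325.2 in db/db, against 189.5 and 159.2 in db/+ (log2 change 0.86, SE 0.21, limma adjusted p = 0.25). Mrpl1, of the large subunit, had 80.9, 94.7 and 102.0 in db/db, against 67.7 and 61.2 in db/+ (0.43, SE 0.16, adjusted p = 0.55). Tomm70a, an import receptor of the outer membrane, had 180.5, 197.0 and 180.8 in db/db, against 156.5 and 95.4 in db/+ (0.54, SE 0.20, adjusted p = 0.54), and Timm17a, a subunit of the inner membrane translocase, had −0.33 (adjusted p = 0.71). In Mrps21, Mrpl1 and Tomm70a all db/db arrays lay above both db/+ arrays, db/db replicate 1 included.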
